A study of Mus musculus with 10 samples.

Results

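Gestational hypoxia was studied in whole hearts at embryonic day 12.5, with wild-type mouse embryos whose mothers breathed 14% oxygen (wild-hypoxia) set against wild-type embryos of mothers at normal oxygen (wild-normoxia). The genes described are those with a successful estimate in both groups and at least 50 fragments in one of them, which held for 13511 of the 49662 genes of the table. Of these, 12867 could be given a gene symbol. Just inside the minimum lay Clec1a, with 50.1 fragments in wild-hypoxia and 46.0 in wild-normoxia, and just outside it Tmeff2, with 49.9 and 47.7 fragments. The comparison asks which transcripts differ after 2 days of gestational hypoxia.

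Cells sense low oxygen through the hypoxia-inducible factors (HIF). Their alpha subunits are hydroxylated by prolyl hydroxylases when oxygen is present and are then marked for destruction by the von Hippel-Lindau protein, so that HIF is governed mainly at the protein level. Stabilised HIF binds a short DNA element beside genes of glucose uptake, glycolysis and vessel growth. At this stage of mouse development the heart wall is building its trabeculae and septa, and the blood within it carries large nucleated red cells from the yolk sac as well as the first red cells made in the fetal liver.

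Wild-hypoxia was represented by 3 samples and wild-normoxia by 4, of 10 samples in the series. The other 3 samples were hearts heterozygous for a knock-in allele of Nkx2-5, a homeodomain transcription factor of the heart, at normal oxygen (mutant-normoxia), whose values are used only to show where the wild-hypoxia values lie. All embryos came from wild-type 129/Sv mothers, mated in the study's methods with males heterozygous for the Nkx2-5 allele, and the labels also mention wild-type males. Mothers of the wild-hypoxia group entered the chamber on gestation day 10, and no other agent was given. Each sample was RNA of 2 to 3 whole hearts, so it also held vessels, epicardium, valves, trapped blood and any adjoining tissue that was not trimmed away. Fewer cells of a type and less RNA per cell cannot be told apart in such samples.

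The deposited table gives 1 estimated fragment count per gene for each group, with a variance from the authors' model, and holds no value of a single sample. The level of a gene is therefore 1 value per group, no overlap of samples can be shown, and no p-value was computed. Differences are given as the log2 ratio of the wild-hypoxia count over the wild-normoxia count, each with 1 fragment added, ± a model standard error (SE). A gene is called higher or lower when the fold is over 1.5 and the ratio is more than 2 model SE from 0. That rule called 170 genes higher in wild-hypoxia, 1.26% of those tested, and 157 lower, 1.16%. The counts of called genes given below for lists stand against these shares. With the variance not divided by the number of samples, 117 genes were called higher and 61 lower. Of the genes given here or in the closing observations, the calls of Cldn6, Dcx, Eno2, Fabp7, Ftx, Gapdh, Gas5, Gclm, Gfi1b, Gp5, Hba-x, Hnf4a, Lhx2, Lyz1, Map2, Mt2, Myb, Myom2, Ppbp, Slc6a9, Snhg20, Sox10, Stra6, Tfap2a, Tfap2b, Tnnt3, Uty and Zic1 ended there. A fold over 2 alone was met by 94 genes upwards (0.696%) and by 79 downwards (0.585%). The median log2 ratio of all tested genes was -0.01, and 90% of them lay between -0.38 and 0.28. The median model SE was 0.17, and 74.7% of the genes were within 1 model SE of 0.

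The counts summed to 19.6 M fragments in wild-hypoxia and 18.5 M in wild-normoxia. Over the genes estimated in both groups the sums were 18.6 and 18.4 M. Reads were about 35 M per sample in the labels. For 31 genes no estimate was given in one group or both, because the locus had too many reads or the fit failed. The haemoglobin genes Hbb-y, Hba-a1 and Hba-a2 were of this kind in wild-hypoxia and had 118001, 14600 and 4277 fragments in wild-normoxia, so the most abundant globins of this stage could be compared only in part. H19 and the mitochondrial genes mt-Co1, mt-Co2 and mt-Co3 had no estimate in either group. The labelled tissue was borne out by its markers, with 57840 fragments of Tnnt2 (cardiac troponin T) in wild-hypoxia and 56645 in wild-normoxia, and 73678 and 70033 of Myh6 (alpha myosin heavy chain).

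The sex of the pooled embryos was not balanced between the groups, as far as sex-linked transcripts show it. Xist, the RNA that silences one X chromosome in females, had 3016 fragments in wild-hypoxia and 12198 in wild-normoxia, a log2 ratio of -2.02 ± 0.20. The Y-linked genes Ddx3y, Eif2s3y, Kdm5d and Uty summed to 2382 fragments in wild-hypoxia and 1612 in wild-normoxia, and their log2 ratios were 0.58, 0.56, 0.51 and 0.59. In mutant-normoxia Xist had 6001 fragments and the Y-linked genes 2278. The median of the other 521 X-linked genes was -0.05, with 3 called higher and 10 lower, where the shares over all genes were 1.26% and 1.16%. Sex-linked transcripts thus differed together with oxygen between the 2 wild-type groups. They did not follow oxygen over the 3 groups, because mutant-normoxia, also at normal oxygen, differed from wild-normoxia in the same direction. The part of embryo sex in the differences below was not tested. The labels do not say whether samples of a group came from separate litters.

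**Figure D1:**
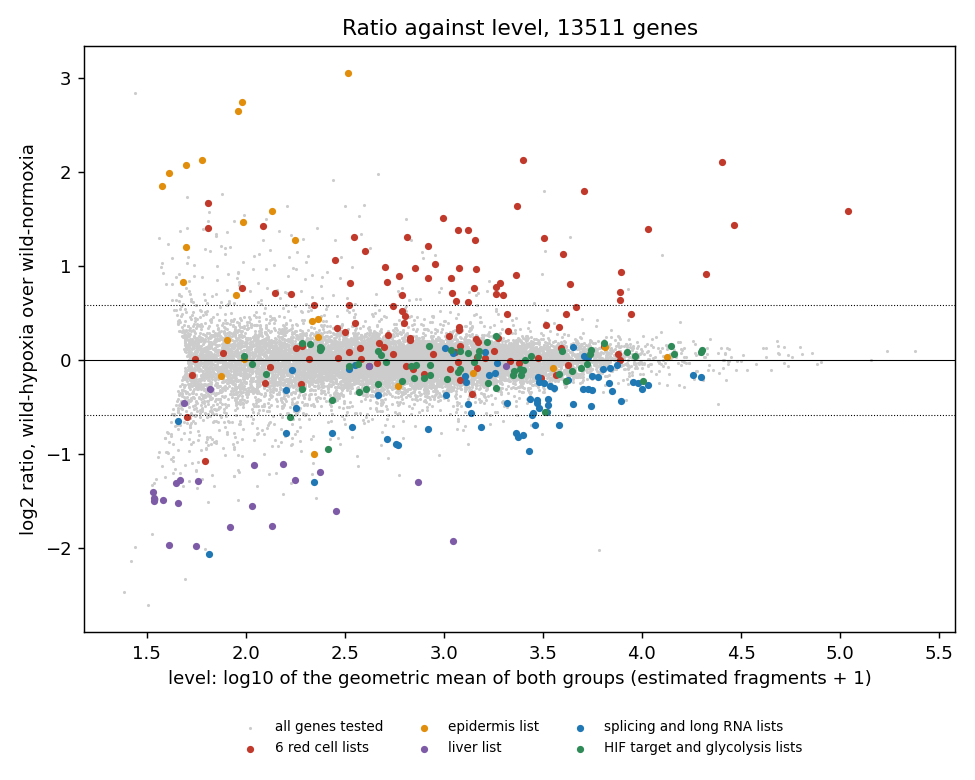
Each point is 1 of the 13511 tested genes. The horizontal axis is the log10 of the geometric mean of both groups' estimated fragments and the vertical axis the log2 ratio of wild-hypoxia over wild-normoxia, with dotted lines at 1.5-fold. Red cell genes (red) and epidermal genes (orange) lie mostly above 0, 97 of 118 and 20 of 25, over a wide range of levels, the 24 liver genes (purple) below it, splicing and long RNA genes (blue) mostly below it, and HIF target and glycolysis genes (green) around it.

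Of the lists examined, those of red cell genes held the most genes called higher. The promoters of several of them are shown first, because GATA1 and KLF1, the regulators that drive red cell genes, bind short motifs that can be read in the DNA. The stretches run from 10 bases before the first motif to the base before the transcription start, 5′ to 3′ on the strand of the gene, from RefSeq on GRCm38.p6. Capitals mark GATA motifs (AGATAA or TGATAA, either strand) and CACC boxes (CCNCACCC, either strand), and 2 CACC boxes overlap in Alas2.
Alas2, chrX:150547321-150547416, plus strand: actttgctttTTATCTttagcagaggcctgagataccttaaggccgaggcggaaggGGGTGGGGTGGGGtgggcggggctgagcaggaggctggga
Hbb-bs, chr7:103827929-103828148, minus strand: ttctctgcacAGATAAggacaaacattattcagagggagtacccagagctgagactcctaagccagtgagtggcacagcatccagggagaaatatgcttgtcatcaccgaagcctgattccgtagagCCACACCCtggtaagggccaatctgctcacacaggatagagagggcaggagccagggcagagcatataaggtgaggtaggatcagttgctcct
Hba-x, chr11:32276482-32276599, plus strand: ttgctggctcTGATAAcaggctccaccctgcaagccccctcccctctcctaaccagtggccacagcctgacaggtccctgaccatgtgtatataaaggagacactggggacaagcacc
Klf1, chr8:84901892-84901981, plus strand: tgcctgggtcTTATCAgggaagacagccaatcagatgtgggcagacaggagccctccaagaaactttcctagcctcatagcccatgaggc

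Of the 48 red cell genes called higher, 34 had a promoter window of 250 bases before to 50 after the start, and 13 of these (38.2%) held a GATA motif. The share was 20% for the other genes called higher, 18.9% for the genes called lower, 9.48% for all tested genes with a window and 19% over all 27025 genes of the table of promoters. A CACC box stood in 26.5% of the windows of the red cell genes called higher, in 37.6% of those of the other genes called higher, in 20.2% for all tested genes and in 16.4% over all genes. These shares describe the letters of the windows and were not tested.

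The haemoglobin genes that could be estimated all lay higher in wild-hypoxia. Hbb-bs, an adult-type beta globin, had 52680 fragments in wild-hypoxia and 12219 in wild-normoxia, a log2 ratio of 2.11 ± 0.31. Its neighbour Hbb-bt had 5220 and 1193 fragments (2.13 ± 0.17). The embryonic globins, made by yolk sac red cells, were called higher too. Hba-x, the embryonic alpha-like zeta globin, had 189460 fragments in wild-hypoxia and 62874 in wild-normoxia (1.59 ± 0.75), and Hbb-bh1, an embryonic beta-like globin, had 48086 and 17815 (1.43 ± 0.29). Adult-type and embryonic forms were both higher, and the 5 globin genes tested had a median of 1.67. Of the 5, 1 reached the minimum only in wild-hypoxia. Globin genes are near-identical copies of each other, and reads of 40 bases could have been shared among them.

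Genes of haem synthesis and iron supply moved in part. Alas2, the red cell form of the first enzyme of haem synthesis, had 9537 fragments in wild-hypoxia and 2743 in wild-normoxia (1.80 ± 0.19). Its counterpart in other cells, Alas1, had 1173 and 1193 fragments (-0.02 ± 0.14). The later enzymes Alad (0.69 ± 0.15), Urod (0.62 ± 0.15) and Fech, which inserts the iron (0.81 ± 0.15), were called higher, as was the biliverdin reductase Blvrb (0.97 ± 0.15). Cpox at 0.19 ± 0.14 and Uros at 0.29 ± 0.38 were not. In all, 6 of 18 genes of haem synthesis were called higher (33.3%, against 1.26% of all genes) and none lower, with a median of 0.32. Of 21 genes of iron handling 3 were called higher, namely Slc25a37 (mitoferrin of red cells, 10918 and 5691 fragments, 0.94 ± 0.18), Fth1 (ferritin heavy chain, 0.92 ± 0.21) and Fam210b (0.87 ± 0.16). The transferrin receptor Tfrc, which imports iron, stood at -0.16 ± 0.14.

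Red cell membrane genes were higher as a group, with 14 of 25 called higher, none called lower and a median of 0.73. Slc4a1, the band 3 anion exchanger, had 17465 fragments in wild-hypoxia and 6622 in wild-normoxia (1.40 ± 0.20). The membrane skeleton genes Add2 (1.27 ± 0.16), Epb42 (1.21 ± 0.17) and Epb41 (0.73 ± 0.16) were called higher, and Tmod1, which heart muscle also expresses, was at 0.01 ± 0.18. Among surface antigens, Rhd had 595 and 266 fragments (1.16 ± 0.18) and Kel 1666 and 843 (0.98 ± 0.16). The water channel Aqp1, which endothelium also makes, was not called (0.32 ± 0.14).

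Genes of late red cell maturation had the highest median after the globins, 0.77, with 15 of 26 called higher. Of the 26, 1 reached the minimum only in wild-hypoxia. Tent5c, a poly(A) polymerase, had 4110 fragments in wild-hypoxia and 1316 in wild-normoxia (1.64 ± 0.17), and Trim10, a ubiquitin ligase of red cells, had 1666 and 584 (1.51 ± 0.17). Bpgm, which makes the 2,3-bisphosphoglycerate that lowers the oxygen affinity of haemoglobin, had 5007 and 2035 fragments (1.30 ± 0.16). Car2, the carbonic anhydrase of red cells, had 5892 and 2686 (1.13 ± 0.16), and Bcl2l1, which protects late red cell precursors from death, 3170 and 1698 (0.90 ± 0.15). Riok3 and Cd24a were not called, at -0.00 ± 0.14 and 0.12 ± 0.14.

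The regulators of the lineage were called in smaller number. Of 23 erythroid regulators 5 were called higher and 1 lower, and the median was 0.15. Nfe2, a late activator of globin genes, had 1029 fragments in wild-hypoxia and 413 in wild-normoxia (1.31 ± 0.17). Klf1 had 687 and 385 (0.83 ± 0.18) and Tal1 2396 and 1397 (0.78 ± 0.15). Gata1 stood at 0.58 ± 0.22, short of the fold of 1.5, and the erythropoietin receptor Epor at 0.34 ± 0.19. Myb, which keeps precursors immature, was the gene called lower, with 41.9 and 89.1 fragments (-1.07 ± 0.32). Myb reached the minimum only in wild-normoxia, the group where it was higher. Over the 6 red cell lists together 48 of 118 genes were called higher (40.7%, against 1.26% of all genes) and 1 lower, and they made up 28.2% of all genes called higher.

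The red cell difference also separated mutant-normoxia from wild-normoxia. Alas2 had 9537 fragments in wild-hypoxia, 7489 in mutant-normoxia and 2743 in wild-normoxia, and Slc4a1 had 17465, 15325 and 6622. The median of the membrane list was 0.73 for wild-hypoxia and 0.72 for mutant-normoxia, both over wild-normoxia, and 0.09 for wild-hypoxia over mutant-normoxia. For the maturation list the 3 medians were 0.77, 0.73 and 0.10, and for the globin list 1.67, 1.39 and 0.32. The first and second share the wild-normoxia samples. The amount of blood left in the hearts is not given in the sources used here, and its part in the difference was not tested.

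**Figure D2:**
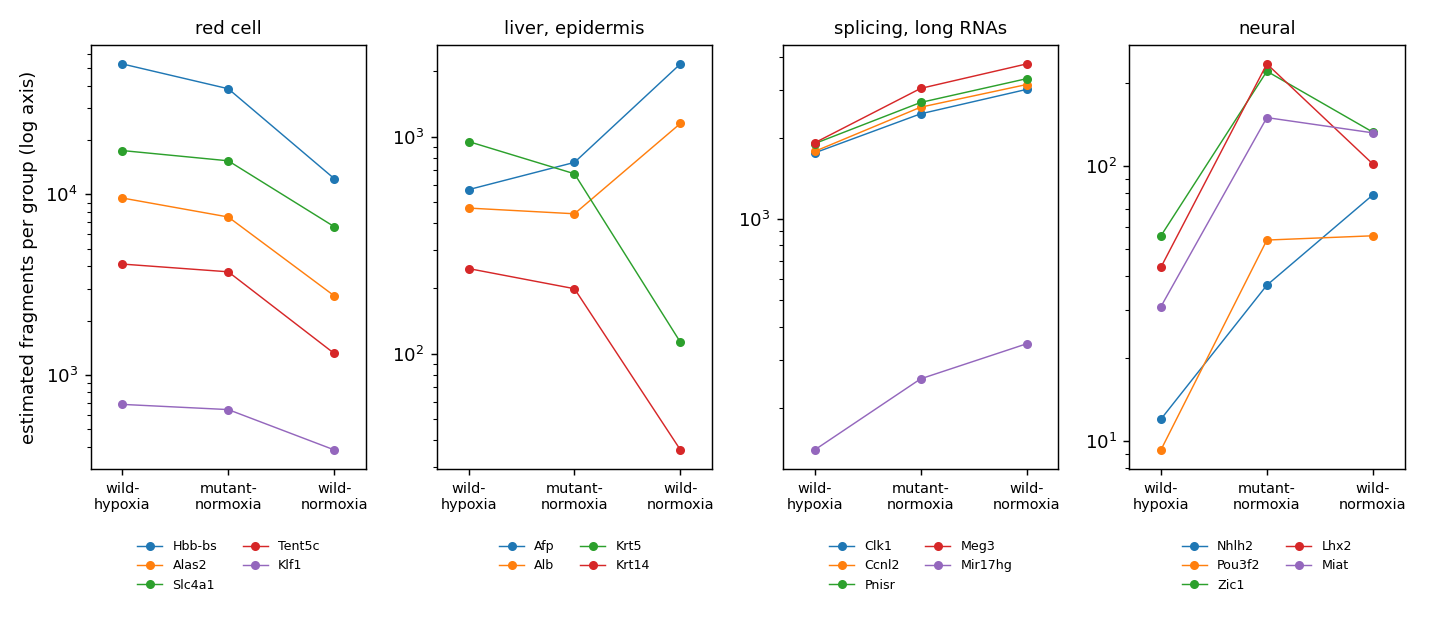
Estimated fragments per group on a log axis for genes of 4 kinds, with wild-hypoxia left, mutant-normoxia in the middle and wild-normoxia right. The red cell, liver and epidermal genes of wild-hypoxia lie closer to mutant-normoxia than to wild-normoxia, whereas Clk1, Ccnl2, Pnisr, Meg3 and Mir17hg, and the neural genes, are lowest in wild-hypoxia. Of the 2 wild-type groups, all neural genes shown except Zic1 reached the minimum only in wild-normoxia, so their direction is in part set by that choice.

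The oxygen-sensing pathway itself showed no called change of transcript level. Among 11 genes of the HIF pathway none was called, 9 lay within 1 model SE of 0, and the median was 0.04. With 1.26% of all genes called higher and 1.16% lower, a list this short need not hold a call. Hif1a had 6978 fragments in wild-hypoxia and 8238 in wild-normoxia (-0.24 ± 0.15). Epas1, the HIF-2 alpha subunit, had 1089 and 1044 (0.06 ± 0.14) and the partner subunit Arnt 1726 and 1790 (-0.05 ± 0.14). The prolyl hydroxylases Egln1 and Egln3 stood at -0.10 ± 0.14 and -0.04 ± 0.16. Cited2, a HIF target that restrains HIF and is needed for heart septation, had the highest value, 1483 and 1199 fragments (0.31 ± 0.14).

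HIF targets outside glycolysis were not called in either direction for any of the 34 tested, and their median was -0.06, with 20 below 0. Vegfa, the chief growth factor of vessels, had 2686 fragments in wild-hypoxia, 3651 in mutant-normoxia and 3945 in wild-normoxia, and its ratio of wild-hypoxia over wild-normoxia was -0.55 ± 0.16. That is more than 3 model SE below 0 but short of the fold of 1.5. The peptide hormone gene Adm stood at -0.31 ± 0.22, the mitophagy gene Bnip3 at -0.04 ± 0.28, the collagen hydroxylase P4ha1 at -0.11 ± 0.14 and Ndrg1 at 0.09 ± 0.17. Narf had the highest value of the list, 0.25 ± 0.14.

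Glycolysis genes were likewise near 0, with a median of -0.02 over 31 genes, none called higher and 2 called lower. Slc2a1, the main glucose transporter of the embryonic heart, had 9357 fragments in wild-hypoxia and 10909 in wild-normoxia (-0.22 ± 0.16). Hk2 stood at -0.15 ± 0.15, Aldoa at 0.08 ± 0.18, Ldha (lactate dehydrogenase A, 20811 and 19334 fragments) at 0.11 ± 0.18 and Pdk1, which keeps pyruvate out of the mitochondria, at -0.09 ± 0.14. The 2 genes called lower were Eno2, the neuronal enolase (-0.61 ± 0.23), and Gapdh (-0.95 ± 0.47). Gapdh has many near-identical copies and was estimated at only 186 and 360 fragments, so its value is uncertain. The HIF motif ACGTG, searched on both strands, stood in 53.8% of the 26 windows of HIF targets and in 48.3% of the 29 windows of glycolysis genes, against 26% of tested genes, 16% of genes called higher and 19.7% of all genes. It is shown in capitals for a pair of these genes, in stretches made as above.
Slc2a1, chr4:119108699-119108744, plus strand: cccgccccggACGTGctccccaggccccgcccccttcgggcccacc
Ldha, chr7:46845649-46845803, plus strand: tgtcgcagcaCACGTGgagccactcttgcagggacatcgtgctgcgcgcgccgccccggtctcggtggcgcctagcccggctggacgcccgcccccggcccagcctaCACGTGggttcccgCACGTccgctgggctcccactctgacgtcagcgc

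**Figure D3:**
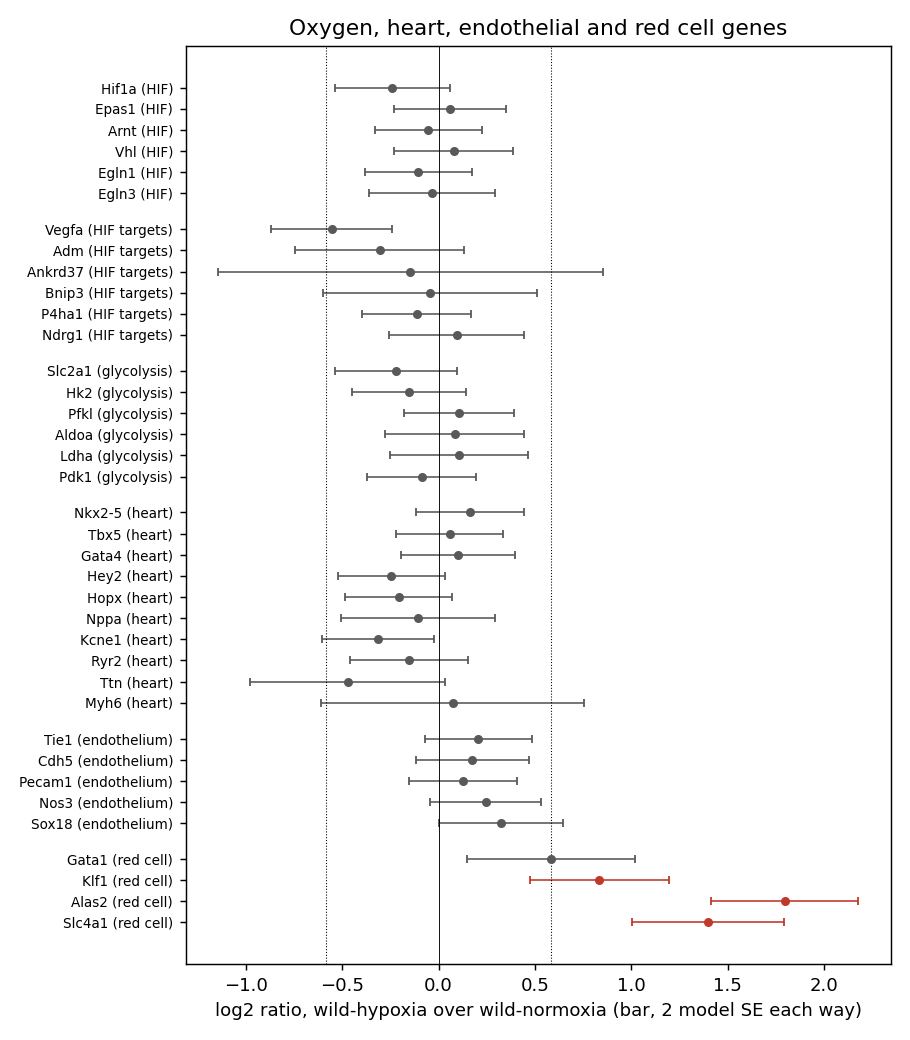
Log2 ratio of wild-hypoxia over wild-normoxia (horizontal axis) for named genes of 6 kinds, with bars of 2 model SE each way and dotted lines at 1.5-fold. HIF, HIF target, glycolysis, heart and endothelial genes lie within 1.5-fold, Vegfa at -0.55, and the red cell genes Klf1, Alas2 and Slc4a1 (red, called higher) lie at 0.83, 1.80 and 1.40.

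Heart muscle genes were close to equal in the 2 groups. Over the 6 lists of heart muscle genes together, 1 of 149 genes was called higher (0.67%, against 1.26% of all genes) and none lower (against 1.16%). The median was -0.03. None of 29 cardiac transcription factors was called, and at the shares over all genes a list of this size need not hold a call. Hey2, a Notch-dependent repressor of the ventricle, had 2488 fragments in wild-hypoxia and 2948 in wild-normoxia (-0.24 ± 0.14). Myocd, a coactivator of muscle genes, stood at -0.22 ± 0.14 and Hopx at -0.21 ± 0.14. Gata4 stood at 0.10 ± 0.15, Mef2c at -0.09 ± 0.14 and Isl1, of the second heart field, at 0.23 ± 0.26.

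Genes that depend on Nkx2-5 lay slightly below 0, with 17 of 21 below it, none called and a median of -0.08. After the median of the gene's transcript length class was taken off, 14 of 21 lay below 0, with a median of -0.05. Kcne1, a potassium channel subunit, had 977 fragments in wild-hypoxia and 1215 in wild-normoxia (-0.31 ± 0.15), and Nppb (brain natriuretic peptide) had 1724 and 2127 (-0.30 ± 0.14). Bmp10, a growth factor of the trabeculae, had 3378 and 3948 (-0.22 ± 0.14). Nppa, the atrial natriuretic peptide gene, stood at -0.11 ± 0.20. Over all tested genes, 7217 of 13511 lay below 0.

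Calcium handling genes had the lowest median of the heart muscle lists, -0.16, with 20 of 24 below 0 and none called. Less the median of their length class it was -0.08, with 19 of 24 below 0. The calcium channel subunits Cacna2d1 (1253 and 1647 fragments, -0.39 ± 0.14), Cacna1c (2375 and 2972, -0.32 ± 0.15) and Cacna1h (2435 and 2988, -0.29 ± 0.14) were each more than 2 model SE below 0. Ryr2, the release channel of the sarcoplasmic reticulum, stood at -0.16 ± 0.15 and its pump Atp2a2 at -0.04 ± 0.23. Conduction and ion channel genes had a median of -0.09, with 17 of 23 below 0. In mutant-normoxia over wild-normoxia these medians were -0.08 for calcium handling and -0.10 for conduction.

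Of 35 sarcomere genes only Myom2, an M-band protein, was called higher (185 and 117 fragments, 0.66 ± 0.24), and the median was 0.00. Ttn, the longest of all transcripts here, had 20618 fragments in wild-hypoxia and 28607 in wild-normoxia (-0.47 ± 0.25). Myh6 (0.07 ± 0.34), Myh7 (-0.02 ± 0.33) and Tnnt2 (0.03 ± 0.26) were within 1 model SE of 0. Among 31 genes of trabeculation and Notch signalling none was called, and the neuregulin receptor Erbb4, which trabeculae need, stood at -0.30 ± 0.14.

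Most endothelial genes had a ratio above 0, but none of the 32 reached the call. Their median was 0.11, with 28 above 0. Nos3, the endothelial nitric oxide synthase, had 1707 fragments in wild-hypoxia, 1391 in mutant-normoxia and 1441 in wild-normoxia (0.24 ± 0.14 over wild-normoxia). The receptor Tie1 had 4317, 3606 and 3745 (0.20 ± 0.14), and Sox18 stood at 0.32 ± 0.16. Over mutant-normoxia 30 of 32 endothelial genes lay above 0 in wild-hypoxia, with a median of 0.16. The VEGF receptor Kdr (0.05 ± 0.14) and the angiopoietin receptor Tek (0.07 ± 0.14) stood near 0, and the ligand Angpt1 at -0.35 ± 0.14.

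Genes of the outer and inner layers of the heart that are not muscle were not called either. Epicardial genes had a median of 0.13 over 18 genes, with Aldh1a2, the retinoic acid synthase of the epicardium, at 0.44 ± 0.15, Upk3b at 0.23 ± 0.14 and Wt1 at 0.03 ± 0.16. Cushion mesenchyme genes, which build the valves, had a median of 0.06 over 25, and collagens one of 0.12 over 31. Col2a1, a cartilage collagen also made in cushions, had the lowest value of the collagens, 1949 and 2732 fragments (-0.49 ± 0.14). Macrophage genes had a median of 0.04 over 17, with C1qa at 0.04 ± 0.26 and Csf1r at -0.06 ± 0.36. Of 17 only Lyz1 was called (lower, -0.75 ± 0.33), a near-identical copy of Lyz2 (-0.31 ± 0.18).

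Regulators of splicing lay lower in wild-hypoxia. Of the 55 genes tested on this list, 8 were called lower (14.5%, against 1.16% of all genes), none higher, and 49 lay below 0, with a median of -0.28. The 8 include Wsb1, which is not a splicing regulator. Members of the list were chosen with earlier results of these data known, so its share is descriptive only. Clk1, a kinase of the serine and arginine-rich (SR) splicing factors whose own transcript retains introns, had 1760 fragments in wild-hypoxia, 2455 in mutant-normoxia and 3023 in wild-normoxia (-0.78 ± 0.15 over wild-normoxia). Its relative Clk4 was also called lower (-0.73 ± 0.16). The cyclins Ccnl2 (1782, 2598 and 3152 fragments, -0.82 ± 0.15) and Ccnl1 (-0.72 ± 0.16), which act in splicing, and the SR-related gene Pnisr (1905, 2705 and 3313 fragments, -0.80 ± 0.15) were called lower too. All 3 genes given in 3 groups were lowest in wild-hypoxia and highest in wild-normoxia.

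The other genes of the list called lower were Rbm3, a cold-induced RNA-binding protein (386 and 692 fragments, -0.84 ± 0.17), Rsrp1 (-0.69 ± 0.15) and Wsb1 (-0.69 ± 0.15), which encodes a subunit of a ubiquitin ligase and is not a splicing regulator. Of the SR protein genes that were not called, Srsf5 (-0.56 ± 0.15) and Srsf3 (-0.51 ± 0.14) were each more than 3 model SE below 0. Srsf9 (0.13 ± 0.15), Ptbp1 (0.14 ± 0.15) and the cold-induced Cirbp (0.08 ± 0.14) did not share the direction. The median of the list was -0.22 for wild-hypoxia over mutant-normoxia and -0.09 for mutant-normoxia over wild-normoxia.

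Long RNAs that stay in the nucleus or host small RNAs in their introns were lower as well. All 17 tested lay below 0, with 7 called lower (41.2%, against 1.16% of all genes), none higher and a median of -0.65. Of the 17, 2 reached the minimum only in wild-normoxia. Among genes whose mean over both groups was at least 50 fragments, 7 of 16 were called lower, with a median of -0.61. Meg3, an imprinted long RNA, had 1918 fragments in wild-hypoxia, 3049 in mutant-normoxia and 3757 in wild-normoxia (-0.97 ± 0.18 over wild-normoxia). Mir17hg, the host of the miR-17 cluster, had 140, 256 and 345 (-1.30 ± 0.22), and Gas5, a host of small nucleolar RNAs, 417, 633 and 779 (-0.90 ± 0.26). The hosts Snhg17 (-0.71 ± 0.19) and Snhg20 (-0.77 ± 0.24) were called lower and Snhg12 was at -0.51 ± 0.23. Malat1 stood at -0.46 ± 0.17 and Neat1 at -0.05 ± 0.18. All 17 also lay below mutant-normoxia in wild-hypoxia, with a median of -0.48.

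Among all genes annotated as long intergenic RNAs, 11 of 88 were called lower and none higher, with a median of -0.19. Of those called lower, C130071C03Rik (12.8 and 53.9 fragments), BB218582 (28.3 and 51.0) and 4933407K13Rik (29.4 and 54.6) reached the minimum only in wild-normoxia. Among annotated protein-coding genes 117 of 12113 were called lower and 161 higher. These kinds of gene were not matched for level. In the lowest class of level, 50 of 1378 tested genes were called lower, against 157 of all 13511. Libraries were made from poly-adenylated RNA, and RNA integrity was above 8 in all samples of the series in the labels. The X-linked RNAs Xist, Firre and Ftx were among the 11 long intergenic RNAs called lower. The parts of RNA quality and of the sex of the embryos in these differences were not tested.

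**Figure D4:**
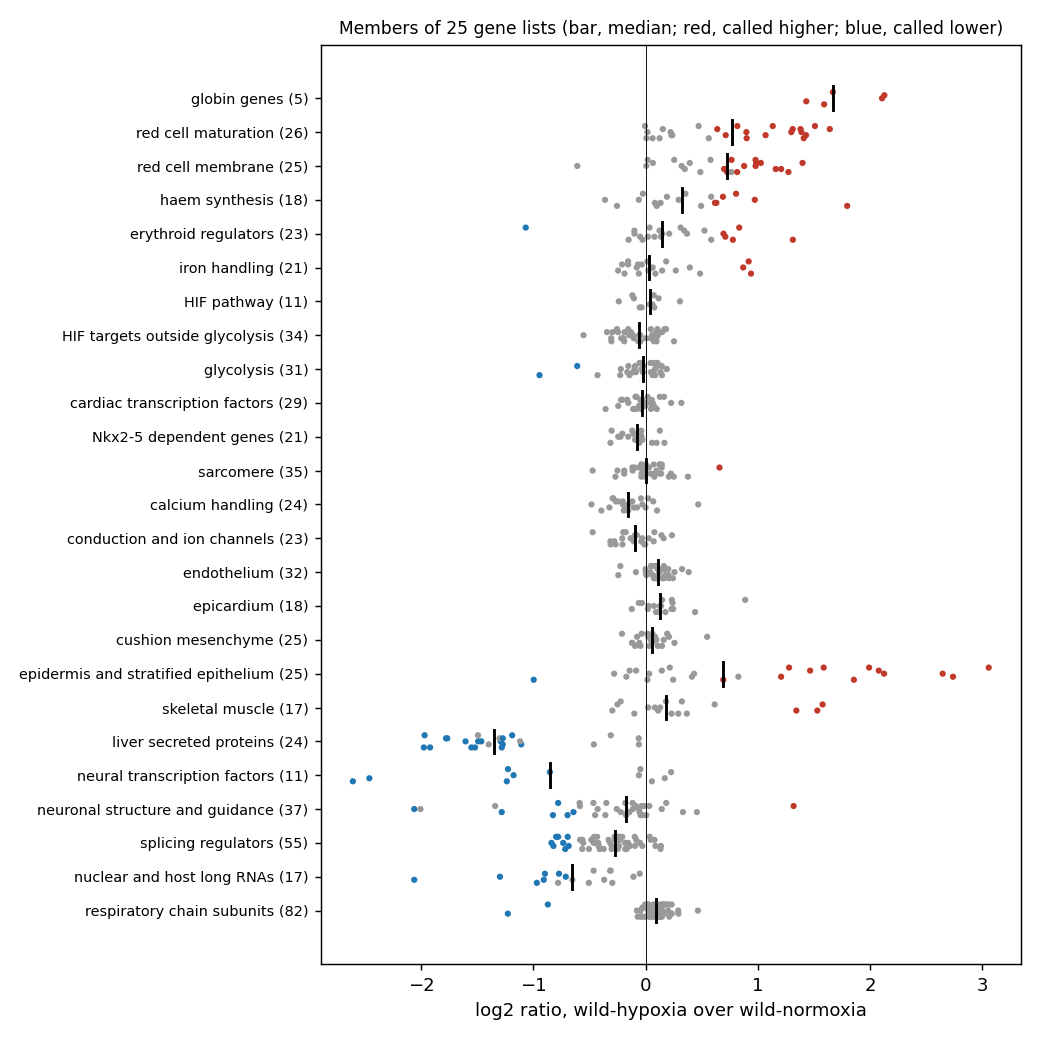
Log2 ratio of wild-hypoxia over wild-normoxia (horizontal axis) for the members of 25 gene lists, with the number tested beside each name. Points are genes (red, called higher; blue, called lower; grey, not called) and bars are list medians, which lie at 1.67 for globins, 0.73 for the red cell membrane, -0.06 for HIF targets, -0.28 for splicing regulators and -1.35 for liver proteins.

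Stress response genes were called in small numbers. Trib3, a pseudokinase induced by ATF4, had 369 fragments in wild-hypoxia, 307 in mutant-normoxia and 139 in wild-normoxia (1.40 ± 0.21 over wild-normoxia). Of 42 genes of the integrated stress response, 3 were called higher: Trib3, and the amino acid transporters Slc6a9 (0.90 ± 0.32), which red cell precursors use for glycine, and Slc1a4 (0.65 ± 0.15). Atf4 stood at 0.18 ± 0.14, Asns at 0.15 ± 0.16 and Ddit3 at -0.24 ± 0.39. Of 42 heat shock and chaperone genes only the near-identical pair Hspa1a (139 and 39.9 fragments, 1.77 ± 0.32) and Hspa1b (113 and 34.2, 1.69 ± 0.32) was called, and both were as high in mutant-normoxia, with 147 and 139 fragments. Of the 2 wild-type groups, both genes reached the minimum only in wild-hypoxia.

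Nrf2 targets and antioxidant genes had 6 of 40 called higher (15%, against 1.26% of all genes), none lower and a median of 0.11, with 35 above 0. Gpx1, glutathione peroxidase, had 18542 fragments in wild-hypoxia and 8568 in wild-normoxia (1.11 ± 0.19), and Prdx2 had 9639 and 6190 (0.64 ± 0.16). Both are abundant in red cells, and Prdx2 is also on the red cell maturation list. Nqo1 (138 and 66.6 fragments, 1.04 ± 0.27), Srxn1 (0.78 ± 0.20), Gclm (0.70 ± 0.26) and the metallothionein Mt2 (0.89 ± 0.24) were called higher, whereas Hmox1 (0.18 ± 0.17) and Txnrd1 (0.04 ± 0.14) were not. Cell cycle genes were near 0, with a median of 0.00 over 55 and only E2f2 called higher (0.69 ± 0.16), which is also an erythroid regulator. The called share was 1.82%, against 1.26% of all genes. Among 40 p53 targets and apoptosis genes, Bcl2l1 was called higher, Mdm4 lower (904 and 1509 fragments, -0.74 ± 0.15), and the median was 0.01. Each call was 2.5% of that list, against 1.26% higher and 1.16% lower over all genes.

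The largest ratios among the lists of tissues other than heart were those of epidermis. Of 25 epidermal genes 12 were called higher (48%, against 1.26% of all genes) and 1 lower, with a median of 0.69. Of the 25, 8 reached the minimum only in wild-hypoxia, so the count and the median describe a list picked in part by that group. Among genes whose mean over both groups was at least 50 fragments, 11 of 23 were called higher, with a median of 0.43, and at a minimum of 200 fragments the median was 0.33. Krt5, a keratin of basal epidermis, had 950 fragments in wild-hypoxia, 675 in mutant-normoxia and 113 in wild-normoxia. Its partner Krt14 had 247, 199 and 36.1 fragments in the same order of groups. Trp63, the master regulator of stratified epithelia, had 161 fragments in wild-hypoxia and 57.5 in wild-normoxia (1.47 ± 0.29), Gjb2, a gap junction protein, 275 and 113 (1.28 ± 0.25), and the ligand Wnt7b 234 and 77.2 (1.59 ± 0.27). Grhl1, another regulator of epidermis, was called lower (154 and 309 fragments), and Krt10 of differentiated epidermis stood at 0.02 ± 0.28. The 25 genes summed to 29547 fragments in wild-hypoxia and 26987 in wild-normoxia, and the other 16 genes of the list were under the minimum. Of 17 genes of simple epithelia 16 lay above 0, with a median of 0.27, and 6 of them reached the minimum only in wild-hypoxia. Krt7 (575 and 353 fragments, 0.70 ± 0.17) and Cldn6 (0.71 ± 0.34) were called higher, and Epcam (0.39 ± 0.33) and Cdh1 (0.27 ± 0.28) were not. Among 17 skeletal muscle genes, Myog (111 and 43.2 fragments, 1.34 ± 0.31), Myh3 (112 and 36.7, 1.58 ± 0.32) and Tnnt3 (1.53 ± 0.58) were called higher (17.6%, against 1.26% of all genes). Of the 17, 3 reached the minimum only in wild-hypoxia, Myog and Myh3 among them. With the minimum set on the mean of both groups, 3 of 17 were still called higher.

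Liver genes were lower, with 16 of 24 called lower (66.7%, against 1.16% of all genes), none called higher, none above 0 and a median of -1.35. Of the 24, 12 reached the minimum only in wild-normoxia. Among genes whose mean over both groups was at least 50 fragments, 14 of 18 were called lower, with a median of -1.29. Afp (alpha-fetoprotein) had 570 fragments in wild-hypoxia, 762 in mutant-normoxia and 2164 in wild-normoxia (-1.92 ± 0.24 over wild-normoxia), and Alb (albumin) had 469, 442 and 1151 (-1.29 ± 0.23). Serpina6, the corticosteroid carrier, had 162 and 494 fragments in wild-hypoxia and wild-normoxia (-1.61 ± 0.26), and the liver regulator Hnf4a 19.7 and 56.2 (-1.47 ± 0.49). Rbp4, the retinol carrier, was called lower as well (113 and 275, -1.27 ± 0.27). The 24 genes summed to 4584 fragments in wild-hypoxia and 8786 in wild-normoxia. The other 27 genes of the list were under the minimum, with Apoc3 at 0 in both groups. Over mutant-normoxia the medians were -0.15 for liver genes and 0.04 for epidermal genes. The part of adjoining tissue in the epidermal, skeletal muscle, liver and neural values was not tested.

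Several neural genes were lower in wild-hypoxia. Of 11 neural transcription factors 6 were called lower (54.5%, against 1.16% of all genes), with a median of -0.85. However, 5 of the 11 reached the minimum only in wild-normoxia. Among genes whose mean over both groups was at least 50 fragments, 4 of 9 were called lower and the median was -0.06, and at a minimum of 200 fragments the median was -0.05. The value of the whole list thus rests on its least expressed genes. Of 37 genes of neuronal structure and guidance 6 were called lower, 1 higher and 30 lay below 0, with a median of -0.17, and 10 reached the minimum only in wild-normoxia. Zic1, of neural precursors and somites, had 55.8 fragments in wild-hypoxia, 221 in mutant-normoxia and 133 in wild-normoxia (-1.24 ± 0.39 over wild-normoxia). Lhx2 had 42.9, 235 and 102 fragments (-1.23 ± 0.34), and of the wild-type groups only wild-normoxia reached the minimum. Map2, a dendritic protein, had 215 and 336 in wild-hypoxia and wild-normoxia (-0.64 ± 0.20) and the migration gene Dcx 87.0 and 150 (-0.78 ± 0.27), while Stmn2 had 161 and 163 (-0.01 ± 0.23). In mutant-normoxia over wild-normoxia the medians were 0.33 and 0.10, and in wild-hypoxia over mutant-normoxia -1.54 and -0.24. Of the 62 neural transcription factors in the table, 51 were under the minimum of 50 fragments in both wild-type groups.

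Genes of neural crest and its derivatives did not share that direction. Of 21 tested, 4 were called higher, namely Sox10, Tfap2b, Tfap2a and Chga. Sox10, which marks migrating crest and glia, had 92.9 and 40.4 fragments (1.18 ± 0.32) and Tfap2b 205 and 124 (0.72 ± 0.26). Tfap2a stood at 0.63 ± 0.31, and Chga, of endocrine cells, had 73.0 and 9.31 fragments (2.84 ± 0.43). Of the 2 called lower, Fabp7, a fatty acid carrier of glia, stood at -0.78 ± 0.36. Sox10 and Chga reached the minimum only in wild-hypoxia, and Fabp7 only in wild-normoxia. With the minimum set on the mean of both groups, 3 genes of this list were called higher and 1 lower. Of 22 platelet genes Nfe2, Gfi1b and Tubb1 were called higher, all of which are also on the red cell lists, and the platelet chemokine Ppbp (65.2 and 116 fragments, -0.82 ± 0.30) and Gp5 (-0.71 ± 0.34) called lower. Pf4 stood at -0.58 ± 0.24 and Itga2b, the platelet integrin, at 0.20 ± 0.19.

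A shift of small size ran through the whole table by transcript length. Tested genes with an annotated transcript in GENCODE M1 on NCBIM37, an older annotation than that behind the table, were matched by identifier. These 12863 genes were divided into 10 equal classes by the length of their longest transcript. The median log2 ratio was 0.08 in the shortest class (median length 0.837 kb) and -0.11 in the longest (7.91 kb), and each class in between lay lower than the one before it. Among the 7630 genes with at least 500 fragments the ends were 0.09 and -0.12, and among 10808 protein-coding genes on no list 0.07 and -0.11. Spearman's rho between length and log2 ratio, across genes of the same libraries, was -0.33 over all tested genes and -0.42 over those with at least 500 fragments. In mutant-normoxia over wild-normoxia the ends were 0.02 and -0.02, and in wild-hypoxia over mutant-normoxia 0.05 and -0.10.

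**Figure D5:**
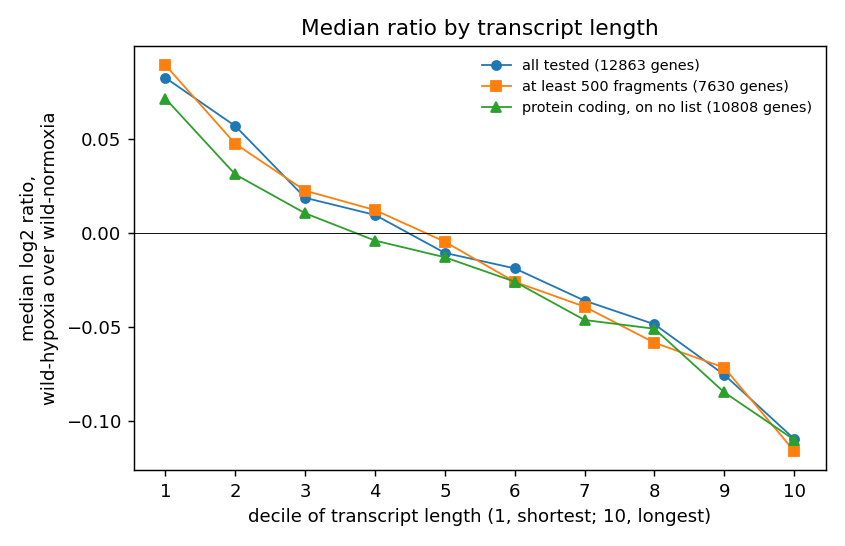
Median log2 ratio of wild-hypoxia over wild-normoxia (vertical axis) in 10 classes of transcript length (horizontal axis, shortest left) for all tested genes, those with at least 500 fragments and protein-coding genes on no list. The 3 lines fall from 0.08, 0.09 and 0.07 in the shortest class to -0.11, -0.12 and -0.11 in the longest.

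The length shift bears on lists of short or long genes. Respiratory chain subunits, with a median length of 0.944 kb, had a median ratio of 0.09 and 70 of 82 above 0, which became 0.02 and 52 of 82 after the median of the gene's length class was taken off. Ribosomal protein genes had a median of 0.02 instead of 0.07. For splicing regulators the value was -0.23 instead of -0.28, with 47 of 55 still below 0, and for the membrane genes of red cells 0.81 instead of 0.73. This correction was chosen after the data were seen.

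The genes called on no list, 81 higher and 96 lower, belonged to many kinds of gene, and the examples given were in part chosen after their values were seen. Hsd3b6, a steroid-forming enzyme, had 5966 fragments in wild-hypoxia and 1709 in wild-normoxia (1.80 ± 0.17), and the chemokine Cxcl14 had 535 and 141 (1.91 ± 0.22). Tmcc2 had 6818 and 2754 (1.31 ± 0.17). Ackr3, a scavenging receptor of the chemokine Cxcl12 in vessels, had 3530 and 2317 (0.61 ± 0.14). Lower were Firre, an X-linked nuclear long RNA (667 and 1344, -1.01 ± 0.17), Mir100hg (363 and 748, -1.04 ± 0.18), the RNA-binding protein genes Arglu1 (2366 and 4096, -0.79 ± 0.15) and Tia1 (2156 and 3482, -0.69 ± 0.16), and Ccnt2, a cyclin of transcription elongation (1343 and 2157, -0.68 ± 0.15). Ftx, another X-linked long RNA of the Xist region, had 97.9 and 185 fragments (-0.92 ± 0.26).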

How the data were processed

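Per the submitters' processing notes and the study's methods, poly-adenylated RNA of E12.5 hearts was read as single-end reads of 40 bases and processed with FastQC, Bowtie2, TopHat and Cufflinks on mm9; the sources used here do not name versions. The table holds identifiers that the NCBIM37 (mm9) annotation of GENCODE M1 lacks, 648 of them among the tested genes, so its annotation is a later one and lengths from GENCODE M1 may differ from those used. The loci that the study's supplement gives for Klf1 and Hbb-bs overlap the GRCm38.p6 promoter windows shown above. Those loci are therefore on GRCm38 and not on the mm9 named in the notes. What the authors deposited is an estimated count for each gene in each group, which need not be whole, with a model variance (another unit, squared fragments). Counts were used without further scaling, on a scale common to the groups. No column of single samples was present, so no replicate spread, count test or SD was possible.

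Symbols came from a table of gene identifiers for 95.2% of the tested genes, 1214 of them updated through RefSeq synonyms and 4 taken from the study's tables. Log2 ratios used a pseudocount of 1 fragment. The model SE came from the deposited variances divided by the 3 or 4 samples of each group, and an SE under 0.05 (3 genes) was not used. It measures the authors' model, not a spread seen between samples, and 250 genes had one over 1. The code recovered changes put into simulated data.

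Members and lists were chosen with earlier results of these data known. The 52 lists are described by counts and medians, over 1 row per symbol. Named genes were the 12 largest changes each way among called genes with at least 200 fragments, the 8 largest each way over 2-fold, up to 5 members of each list by distance in model SE with its defining markers, and genes the study names; others given as examples were chosen after their values were seen. Genes with near-identical copies are uncertain at this read length. Coordinates are those of the RefSeq promoter windows (GRCm38.p6), 1 window per gene; none was converted. Alternatives were other pseudocounts, minimums and scalings, the undivided variance, and a correction for length and a minimum on the mean of both groups, both added after the data were seen. Python 3.11.15, pandas 2.3.3 and numpy 2.4.6 were used. Values of a few named genes are not reported here.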

Additional observations from a re-analysis of the deposited data

How the results depend on the processing

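The counts of genes depended on the minimum level and on the error used. With a minimum of 10 fragments instead of 50, 247 genes were called higher and 272 lower in wild-hypoxia, and 180 were over 2-fold higher and 316 lower. With a minimum of 200 fragments the counts were 109 called higher, 74 called lower, 53 over 2-fold higher and 20 lower. With the model variance not divided by the number of samples 117 were called higher and 61 lower. Pseudocounts of 10 and 0.5, scaling to equal totals and centring on the median left all 4 counts within 1.5 times. No named gene changed sign while called. Some list medians near 0 did change sign under the length correction. Among them, cardiac transcription factors went from -0.03 to 0.01, oxygen-dependent demethylases from -0.04 to 0.01 and macrophage genes from 0.04 to -0.01. The medians of the epidermal and neural transcription factor lists were 0.33 and -0.05 at a minimum of 200 fragments, and that of the neural transcription factors was -0.46 both with and without the length correction over the 10 genes with a length. With a minimum of 50 fragments on the mean of both groups, an alternative chosen after the data were seen, 162 genes were called higher and 134 lower, and that median was -0.06. Of the named genes, 34 lost their call with the undivided variance, Hba-x, Myb, Zic1, Lhx2 and Gas5 among them. Under the other settings Eno2, Uty, Stra6 and Gapdh lost theirs in 5 cases, and Gata1, Pf4, Cldn4, Ddx3y and Hr gained one in 6. Leaving out single samples was not run, because the table holds group values only. No paired analysis was possible because no value of a single sample is in the table. The depth of single samples could not be used either.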

Other observations

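Other gene groups differed little between wild-hypoxia and wild-normoxia. Of 22 genes of fatty acid oxidation and 25 of cholesterol synthesis none was called, with medians of 0.03 and 0.01. None of 25 oxygen-dependent demethylases was called, and Tet2, which oxidises methylated cytosine, had 1031 fragments in wild-hypoxia and 1452 in wild-normoxia (-0.49 ± 0.15). Of 34 immediate early genes none was called, with a median of 0.07, and of 39 genes of BMP and TGF-beta signalling none, with a median of -0.03.

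Of 44 Wnt genes, 3 ligands were called higher, namely Wnt7b, Wnt7a (73.5 and 27.7 fragments, 1.38 ± 0.34) and Wnt6 (125 and 53.8, 1.20 ± 0.31), all of which epithelia express. The 11 Hox genes tested had a median of 0.31, with 10 above 0 and none called, and in wild-hypoxia over mutant-normoxia 1 of 11 lay above 0. Of 18 interferon-induced genes, Rsad2 (196 and 97.1 fragments, 1.01 ± 0.25) and Cmpk2 (268 and 147, 0.86 ± 0.22), which are neighbouring genes, were called higher, and the median was 0.08. Of 15 retinoic acid genes, Stra6, a receptor that takes up retinol, was called higher (65.6 and 39.8 fragments, 0.71 ± 0.35), and Rbp4, which brings the retinol, lower. Wnt7a and Stra6 reached the minimum only in wild-hypoxia.

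Genes without a symbol, 644 in number, made up 4.77% of the tested genes but 14.0% of those called lower, 22 genes, and 1.76% of those called higher, 3 genes.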
